A study of Mus musculus with 5 samples.

Results

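The 9 genes described here encode the core of the T cell receptor machinery: the CD3 chains Cd3e, Cd3d, Cd3g and Cd247, the co-receptor Cd4, the kinases Lck and Zap70, and the adaptors Lat and Lcp2. They were chosen by name, as the rows of the count table that carry these 9 symbols, out of 24417 genes with a symbol. All 9 passed the filter on low counts, as did 14164 genes in all. RNA came from cells of the colonic lamina propria, the layer of connective tissue under the gut epithelium. The strain label is the same for every library and joins Foxp3DTR-GFP with loxp-Thy1.1-STOP-loxp-GFP. In the labels the groups differ in the reporter that marks the cells. The 2 Treg libraries hold cells labelled Foxp3-DTR-GFP+, where Foxp3 is the transcription factor of regulatory T (Treg) cells. The 3 reporter-null libraries hold cells labelled Foxp3 Thy1.1+ reporter-null. Foxp3 RNA was itself 9.68-fold lower in them, so the groups differ in Foxp3 RNA and not only in the reporter. The labels give no treatment, age or sex, and do not say whether each library came from its own animal. The description of reporter-null replicate 1 names both 1 and 4, so it may be a pool. The spread behind each p-value is that of these libraries and may be technical.

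The T cell receptor itself has almost no cytoplasmic part and signals through the CD3 chains, whose tails carry paired tyrosine motifs. Lck, which rides on the tail of CD4, phosphorylates these motifs. Zap70 then docks on them and phosphorylates LAT and SLP-76 (the product of Lcp2), the scaffolds on which phospholipase C-gamma and other enzymes are assembled. In Treg cells the same receptor is needed for suppressive function, while in conventional CD4 T cells it drives activation.

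Total counts ran from 17670420 to 22395169 per library. Foxp3 stood at 764 and 769.96 CPM (a library's counts scaled to a common total) in the Treg libraries and at 75.7 to 81.3 CPM in the reporter-null libraries, the direction of the labels. Thy1, whose allele Thy1.1 is the reporter, ranged from 269 to 300.5 CPM in reporter-null libraries, against 18.8 and 21.4 CPM in Treg, and these counts do not separate the reporter from the gene itself. Cd8a, a defining marker of CD8 T cells, was at most 0.542 CPM in any library. A pair of libraries stood apart in both groups. Treg replicate 1 and reporter-null replicate 2, which both carry the number 2 in their descriptions, had the highest summed CPM of 10 epithelial and stromal markers (298 and 890.5 CPM, against 115 to 149.95 CPM in the others). Pecam1 alone gave 81.5 to 101.3 CPM of that sum in every library. Sums of myeloid markers were highest in the same pair (54.9 and 112.5 CPM, against 20.8 to 26.0 CPM). So were those of B and plasma cell markers (1375 and 839 CPM, against 375 to 429 CPM). The pair also had the lowest Hspa1a, a heat shock gene (1371 and 2047 CPM, against 11238 to 13660 CPM). The part of any of these in the results below was not tested. For each gene named as called, the fits that end the call are given among those with a library left out, without both libraries numbered 2, and with the description numbers as a block. In bulk RNA, fewer cells of a type and less RNA per cell cannot be told apart.

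Levels below are CPM after TMM scaling, with replicates in the order Treg 1 and 2 and reporter-null 1, 2 and 3. They are not divided by gene length, so levels of different genes are not compared. A positive log2 fold change means a higher level in reporter-null cells, and SE is its standard error. Adjusted p-values are from edgeR (quasi-likelihood, Benjamini-Hochberg over the 14164 genes) unless another tool is named.

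Cd4, the co-receptor gene, rose 1.98-fold in reporter-null cells. The CD3 chains, Lck, Zap70, Lat and Lcp2 did not pass the test, and the largest difference among them was the 1.40-fold higher level of Cd3g. Of the 9 genes 1 was called at an adjusted p under 0.05, where 8.79% of all tested genes were called (4.07% higher and 4.72% lower). The groups did not overlap in 7 of the 9 genes, 4 higher and 3 lower in reporter-null cells, where 40.8% of all tested genes did not overlap (20.3% higher and 20.5% lower). The median log2 fold change was 0.13 over the 9 genes and 0.02 over all tested genes. The plot of CPM by library gives every value.

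**Figure D1:**
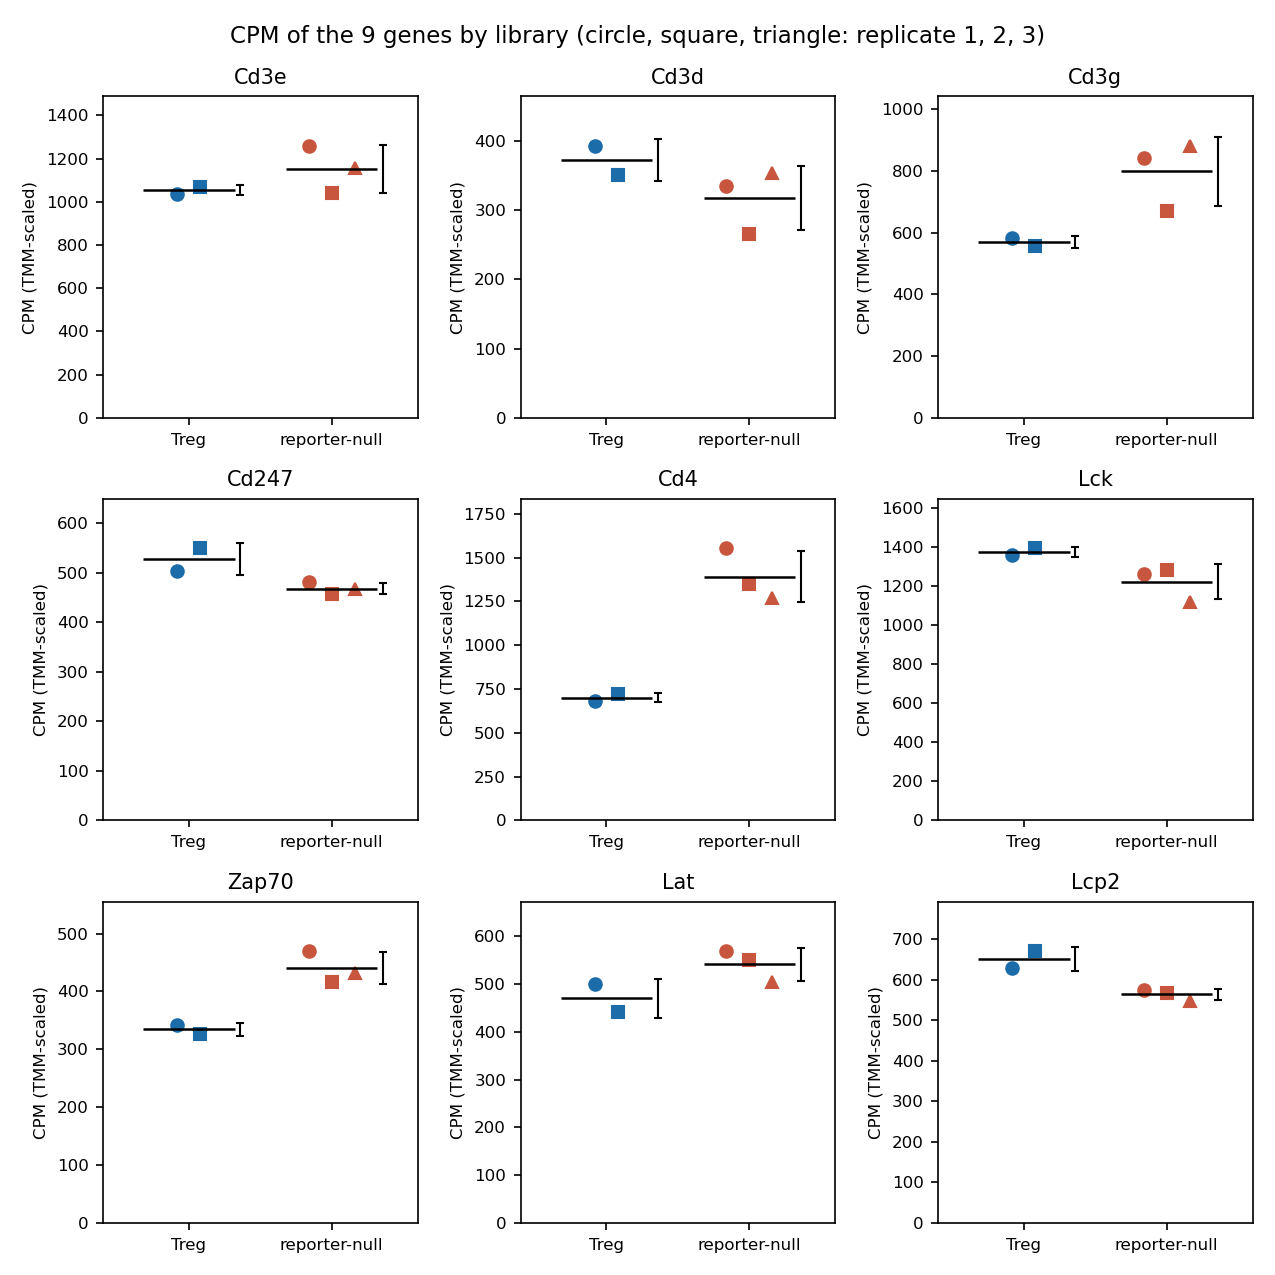
CPM (TMM-scaled, axes from 0) of the 9 genes in each library, Treg in blue and reporter-null in red, with the mean as a bar and the SD beside it (n = 2 and n = 3). The Cd4 panel shows the widest separation, with Treg libraries at 682 and 719.6 CPM and reporter-null libraries from 1271 to 1555 CPM.

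Cd4 encodes the co-receptor that binds MHC class II and brings Lck to the receptor. It stood at 682 and 719.6 CPM in the Treg libraries and at 1555, 1348 and 1271 CPM in the reporter-null libraries. Every reporter-null library lay above both Treg libraries. On the log2 scale Cd4 rose by 0.99 (SE 0.141, adjusted p = 0.00796), and the 95% interval of its 1.98-fold rise was 1.57 to 2.50. Its direction held with each library left out (0.90 to 1.05), but the call was lost without Treg replicate 1 (adjusted p = 0.11) or Treg replicate 2 (adjusted p = 0.0827), fits that leave 1 Treg library and take its spread from the reporter-null libraries. Between the libraries that share the number 2 the log2 difference was 0.98, and between those that share the number 3 it was 0.82.

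None of the 4 CD3 chains passed the test, and their point estimates differed in sign. CD3-epsilon pairs with either CD3-delta or CD3-gamma in the receptor complex, and Cd247 encodes the zeta chain, which carries more of the tyrosine motifs than any other chain. Cd3e was 1036 and 1070.2 CPM in Treg and 1260.2, 1039.9 and 1158 CPM in reporter-null libraries. The groups overlapped, and the log2 fold change was 0.13 (SE 0.133, adjusted p = 0.649). Its 95% interval in fold ran from 0.879 to 1.36.

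Cd3g was 583 and 556 CPM in Treg and 841, 672 and 882 CPM in reporter-null libraries. All 3 reporter-null libraries were above both Treg libraries, and Cd3g was 1.40-fold higher (95% interval 1.09 to 1.80, log2 fold change 0.49, SE 0.151). This did not pass edgeR's test after adjustment (adjusted p = 0.109, unadjusted p = 0.0152). The lowest reporter-null value was in replicate 2, and without that library Cd3g passed (log2 fold change 0.59, adjusted p = 0.0152), as it did without both libraries numbered 2 (0.64, adjusted p = 0.036) and with DESeq2 (adjusted p = 0.00678). The log2 difference was 0.21 between the libraries numbered 2 and 0.67 between those numbered 3.

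Cd3d did not pass either. It was 393 and 350.3 CPM in Treg and 334, 266 and 353 CPM in reporter-null libraries, which overlap. The lowest value was again in reporter-null replicate 2. Between the libraries numbered 2 the log2 difference was -0.57, and between those numbered 3 it was 0.01. On the log2 scale the difference was -0.23 (SE 0.151, adjusted p = 0.451), with a 95% interval in fold of 0.666 to 1.10. Cd247 was 504 and 549.9 CPM in Treg and 480.5, 457 and 467 CPM in reporter-null libraries. Its groups did not overlap, but the difference was small (log2 fold change -0.17, SE 0.109, adjusted p = 0.425, 95% interval in fold 0.742 to 1.06).

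Summed over the 4 chains, the level was 2516 and 2527 CPM in Treg and 2916, 2434 and 2859.8 CPM in reporter-null libraries, so the groups overlapped. The shares of 3 chains in that sum did not overlap between the groups. Cd3g made up 23.2% and 22.0% of the CD3 chain counts in Treg libraries and 28.8%, 27.6% and 30.8% in reporter-null libraries. Cd3d made up 15.6% and 13.9%, against 11.5%, 10.9% and 12.3%. The share of Cd247 was 20.05% and 21.8%, against 16.5%, 18.8% and 16.3%. Cd3e held 40.5% to 43.2% in every library, with overlapping groups. Such shares do not depend on how libraries are scaled. Taken against the same sum, 39.1% of all tested genes did not overlap.

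Among the CD3 chains, Cd3g and Cd3d had the least alike profiles over the 5 libraries (a root mean square difference of 0.350 in centred log2 CPM). Cd3g and Cd247 were nearly as far apart, at 0.344. Cd3g and Cd3d were singled out after the values were seen. Their count ratio was 1.48 and 1.59 in the Treg libraries and 2.51, 2.53 and 2.50 in the reporter-null libraries. The 3 reporter-null libraries were nearly equal in this ratio. No test was made of the ratio, since an exact permutation test with both sides counted over 2 against 3 libraries cannot give a p below 0.1, and 41% of all tested genes had a ratio to Cd3d without overlap.

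Cd3g and Cd3d are neighbours that point away from each other, with 1355 bases between the start sites that RefSeq gives (GRCm38.p6). Cd3e lies in the same cluster. The windows from 250 to 61 bases before each start are shown because Cd3g and Cd3d flank the same stretch of DNA. Sequences are from RefSeq on GRCm38.p6. The build of the counts is not given in the sources used here. Cd3g is at chr9:44980492-44980681 on the minus strand, Cd3d at chr9:44981536-44981725 on the plus strand and Cd3e at chr9:45009672-45009861 on the minus strand. Capitals mark GGAA (the core of ETS sites), TGTGGT (RUNX), CACCTG (an E-box) and CTTTGA (TCF and LEF factors), each searched on both strands, and matches to different motifs do not overlap in these windows.
Cd3g: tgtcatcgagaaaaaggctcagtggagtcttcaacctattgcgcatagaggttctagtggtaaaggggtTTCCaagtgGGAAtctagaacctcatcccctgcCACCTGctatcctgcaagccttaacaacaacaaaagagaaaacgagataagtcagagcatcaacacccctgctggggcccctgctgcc
Cd3d: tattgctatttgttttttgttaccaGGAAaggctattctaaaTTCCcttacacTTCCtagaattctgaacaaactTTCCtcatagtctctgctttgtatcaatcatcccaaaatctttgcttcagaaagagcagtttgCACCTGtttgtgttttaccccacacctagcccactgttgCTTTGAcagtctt
Cd3e: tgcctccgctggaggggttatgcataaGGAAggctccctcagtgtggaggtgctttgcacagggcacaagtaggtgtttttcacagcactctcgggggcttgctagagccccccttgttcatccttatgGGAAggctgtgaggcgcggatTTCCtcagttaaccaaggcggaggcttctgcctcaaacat
The windows held 2 GGAA cores for Cd3g, 4 for Cd3d and 3 for Cd3e. An E-box letter match stood once each in Cd3g and Cd3d, and CTTTGA once in Cd3d. Of 32851 promoter windows of the same length, 87.9% held GGAA, 13.8% CACCTG and 11.3% CTTTGA, and 3610 held TGTGGT. A promoter entry was found for 8 of the 9 genes, in 11 windows, of which 9 held GGAA, 4 CACCTG, 1 TGTGGT and 1 CTTTGA. These are letter matches and not sites.

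Neither kinase passed the edgeR test. Zap70, the kinase that docks on phosphorylated CD3 tails, was 343 and 327 CPM in Treg and 471, 417 and 432 CPM in reporter-null libraries. Each reporter-null library was above both Treg libraries, with a log2 fold change of 0.39 (SE 0.113) and a fold of 1.31 (95% interval 1.09 to 1.59). The edgeR test did not call it (adjusted p = 0.0877, unadjusted p = 0.0107), and DESeq2 did (adjusted p = 0.00112). The log2 difference was 0.28 between the libraries numbered 2 and 0.40 between those numbered 3. Lck was 1356 and 1393 CPM in Treg and 1260.5, 1282 and 1119 CPM in reporter-null libraries. All 3 lay below both Treg libraries, with a 95% interval in fold of 0.721 to 1.09 (log2 fold change -0.17, SE 0.126, adjusted p = 0.501).

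Lck was set against Zap70 and Cd4, pairs chosen after the values were seen. There were 0.253 and 0.234 Zap70 counts per Lck count in Treg libraries and 0.373, 0.325 and 0.386 in reporter-null libraries. Lck counts per Cd4 count were 1.99 and 1.94 in Treg and 0.811, 0.951 and 0.880 in reporter-null libraries. Neither ratio overlapped between the groups, and 44.4% of all tested genes had a ratio to Lck, and 79.2% a ratio to Cd4, without overlap. Relative to the summed CD3 chains, Cd4 stood at 27.1% and 28.5% in Treg and at 53.3%, 55.4% and 44.4% in reporter-null libraries. Zap70 stood at 13.6% and 12.9% of that sum, against 16.1%, 17.1% and 15.1%, and Lck at 53.9% and 55.1%, against 43.2%, 52.7% and 39.1%. Lcp2 stood at 25.04% and 26.6%, against 19.7%, 23.3% and 19.1%. Lat overlapped, at 19.8% and 17.5% against 19.5%, 22.6% and 17.6%. The groups thus did not overlap in 4 of these 5 genes, where 39.1% of all tested genes taken against the sum did not.

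Neither adaptor passed the test. Lat, the membrane scaffold, was 499 and 441 CPM in Treg and 569.9, 549.7 and 504 CPM in reporter-null libraries (log2 fold change 0.20, SE 0.122, adjusted p = 0.397). The lowest reporter-null value lay just above the highest Treg value, and the 95% interval in fold was 0.941 to 1.41. Lcp2 was 630.1 and 672 CPM in Treg and 576, 568 and 547 CPM in reporter-null libraries, all 3 below both Treg libraries (-0.21, SE 0.109, adjusted p = 0.328, 95% interval in fold 0.723 to 1.04). Counts of Lcp2 per count of Lat were 1.26 and 1.52 in Treg and 1.01, 1.03 and 1.09 in reporter-null libraries, and 41.7% of all tested genes had a ratio to Lat without overlap. By the RefSeq annotation Zap70 overlaps a pseudogene and Lcp2 a long non-coding gene, whose reads cannot be told apart from theirs here. The plot of ratios shows 4 of these quantities, which need no scaling between libraries.

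**Figure D2:**
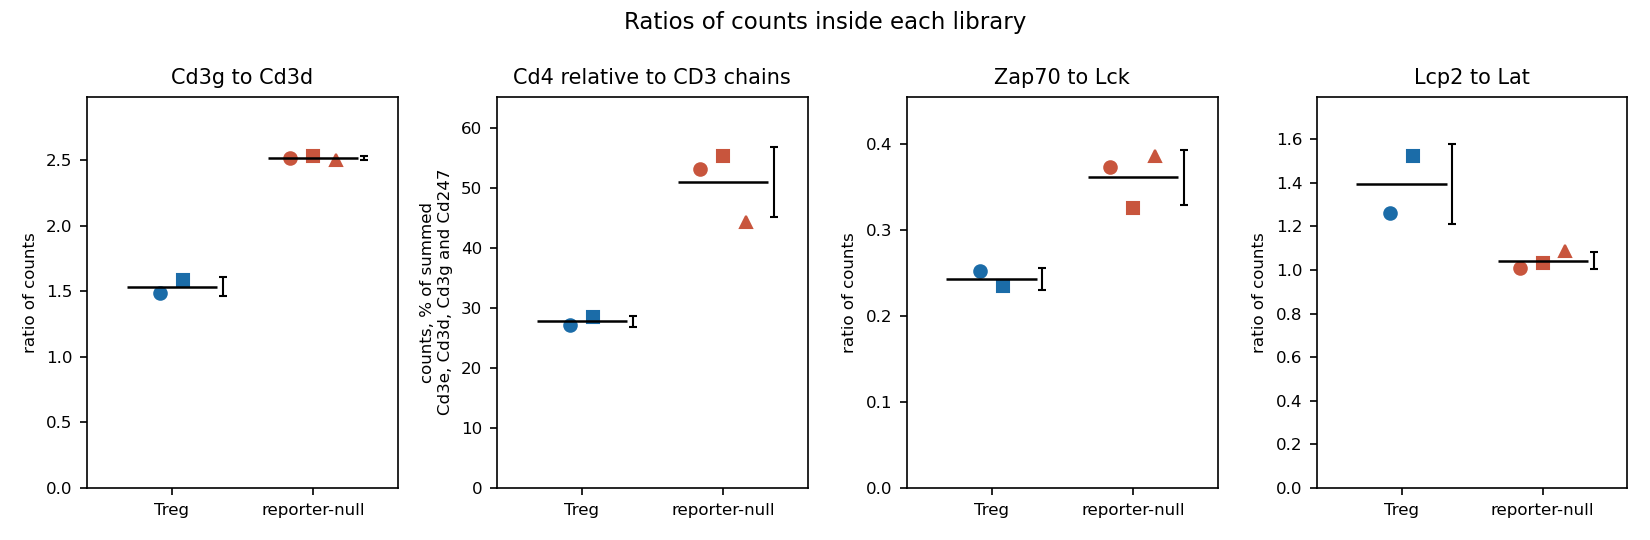
Ratios of counts inside each library (axes from 0; circle, square and triangle are replicates 1, 2 and 3; bar, mean; whisker, SD), Treg in blue and reporter-null in red. The groups do not overlap in these 4 panels, which were chosen after the values were seen and for which 39.1% (against the CD3 chains), 41% (to Cd3d), 44.4% (to Lck) and 41.7% (to Lat) of all tested genes do the same. Cd3g to Cd3d lies between 2.50 and 2.53 in the reporter-null libraries.

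In the centred log2 profiles over the 5 libraries, Cd247, Lck and Lcp2 were the most alike of the 36 pairs of members, with root mean square differences of 0.03 (Cd247 and Lcp2), 0.05 (Lck and Lcp2) and 0.08 (Cd247 and Lck). Cd3g was 0.12 from Zap70. Cd4 was furthest from Cd3d, at 0.62. These distances describe 5 libraries and were not tested.

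**Figure D3:**
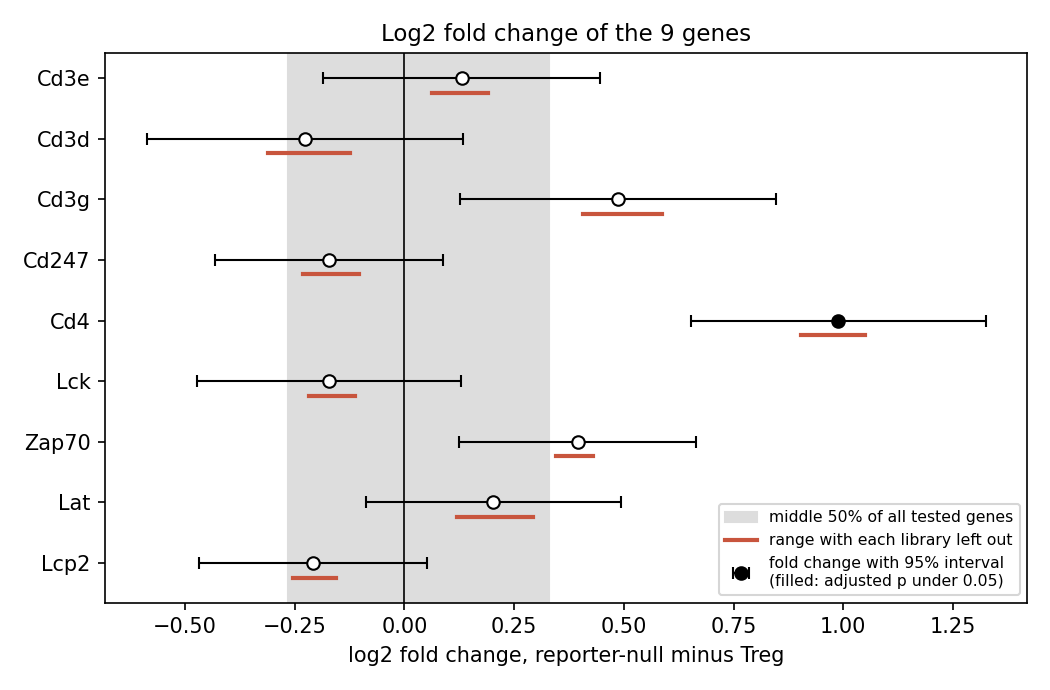
Log2 fold change (reporter-null minus Treg) of each gene with its 95% interval, the range with each library left out in red, and the middle 50% of all tested genes in grey (-0.26 to 0.33). Cd4 at 0.99 is the filled point that passed, and Cd3g (0.49) and Zap70 (0.39) lie outside the grey band without passing.

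Genes with the profile most like Cd4, among 6145 genes at an average log2 CPM of at least 5, were Fam102a, Ehd1, Dus2, Ppfibp1 and Coro2b, at root mean square differences of 0.05 to 0.09. Fam102a was 192 and 225 CPM in Treg and 442, 401 and 375 CPM in reporter-null libraries, with a log2 fold change of 0.96. Ehd1, which encodes an endocytic recycling protein, differed by 1.05. A distance under 0.1 from Cd4 was found for 14 genes. The mean profile of the CD3 chains was near-flat and had 530 of 6142 genes within the same distance. Those closest were Scp2, Kdelr1, Lrrc58, Anapc11 and Uso1 (0.02 each).

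Some genes listed as markers of other lymphocytes also differed between the groups, where 4.07% of all tested genes were called higher and 4.72% lower. For gamma-delta T cells, 5 markers summed to 69.0 and 82.1 CPM in Treg and to 682 to 934 CPM in reporter-null libraries. Of these 5, 3 (Blk, 5830411N06Rik and Tmem176a) were higher. Most of the sums came from Tmem176a and 5830411N06Rik. Tmem176a gave 55.7 and 67.7 CPM in Treg and 236 to 302 CPM in reporter-null libraries. 5830411N06Rik gave 7.17 and 6.89 CPM in Treg and 381 to 585 CPM in reporter-null libraries. Sox13, a transcription factor of that lineage, ran from 0.0542 to 3.94 CPM with overlapping groups, and constant segments of the receptor chains were not analysed here. Of 7 tested innate lymphoid markers 2 were higher (1 without Treg replicate 1 or reporter-null replicate 1, 3 without both libraries numbered 2 and 4 with the description block), with sums of 500.2 to 522 CPM in Treg and 591 to 920.1 CPM in reporter-null libraries. Areg, which overlapped between the groups, gave 409 and 395 CPM of those sums in Treg and 281 to 528 CPM in reporter-null libraries. Klrb1b was listed at 0 and Ncr1 was at most 1.34 CPM. B and plasma cell markers summed to 415 and 1375 CPM in Treg and 375 to 839 CPM in reporter-null libraries, with 1 of 5 tested (Cd79b) lower. Cd79b was not called without Treg replicate 1 (0.0588), which takes the list's count to 0. Of 11 tested myeloid markers none was called, with sums of 20.8 and 54.9 CPM in Treg and 25.2 to 112.5 CPM in reporter-null libraries. With the description numbers as a block, Csf1r (log2 fold change 2.61, adjusted p = 0.0225) and Lyz2 (1.21, adjusted p = 0.0215) were called higher. Csf1r had 60 and 2 counts in Treg and 33, 226 and 45 in reporter-null libraries. Lyz2 had 418 and 63 counts, against 171, 763 and 230. Without both libraries numbered 2, Treg replicate 2, the lower of the Treg libraries for both genes, is the only Treg library. The part of such cells in the values of Cd4 and the CD3 chains was not tested.

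Other kinases of the Src, Syk and Tec families, relatives of Lck and Zap70, changed in part. Of 8 Src and Syk family genes 1 was higher and 2 lower, with a median log2 fold change of -0.37. Over all tested genes 4.07% were higher and 4.72% lower. Fyn, the other main Src kinase of T cells, was 611 and 719.5 CPM in Treg and 733, 672 and 707 CPM in reporter-null libraries, with overlapping groups (0.08, SE 0.126, adjusted p = 0.776). Blk, a Src kinase known from B cells and some innate-like T cells, rose from 2.88 ± 1.23 to 44.0 ± 9.17 CPM (3.92, adjusted p = 0.00152) and was called with each library left out. It is also 1 of the gamma-delta markers above. The family's count of 3 calls became 1 in each fit without a Treg library, 2 without reporter-null replicate 1 and 6 without reporter-null replicate 2.

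Src and Lyn fell at lower levels. Src went from 25.4 ± 0.225 to 12.5 ± 1.66 CPM (-1.03, adjusted p = 0.0156), and was not called without Treg replicate 1 (0.116) or 2 (0.0969). Lyn went from 31.9 ± 0.370 to 18.2 ± 1.45 CPM (-0.81, adjusted p = 0.0192), and was not called without Treg replicate 1 (0.132) or 2 (0.102) or reporter-null replicate 1 (0.104). Syk, the relative of Zap70, was 3.85 and 1.39 CPM in Treg and 0.162, 8.06 and 0.400 CPM in reporter-null libraries. Its log2 fold change of 0.14 (adjusted p = 0.978) rested on reporter-null replicate 2, the library with the highest epithelial and stromal marker sum, and was -3.17 without it (adjusted p = 0.0194).

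Of 4 Tec family kinases, which activate phospholipase C-gamma, 1 was lower and none higher (4.72% and 4.07% of all tested genes). Txk fell from 107.6 ± 3.66 to 59.0 ± 6.84 CPM (-0.87, adjusted p = 0.00967), and was not called without Treg replicate 1 (0.0772) or 2 (0.0844) or reporter-null replicate 1 (0.0636).

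Of 22 tested regulators of Lck and of early phosphorylation, 8 were lower and none higher, where 4.72% of all tested genes were lower and 4.07% higher. The median log2 fold change was -0.31, against 0.02 over all tested genes, and the list itself was not tested. Like the other lists, it was chosen with earlier results of these data known. Csk, which phosphorylates the inhibitory tyrosine of Lck, fell from 172 ± 19.1 to 96.5 ± 5.51 CPM (-0.84, adjusted p = 0.00818). Ptprc, which encodes CD45, the phosphatase that removes that same phosphate, fell from 1782 ± 144 to 1087 ± 134 CPM (-0.71, adjusted p = 0.0328). The list held a called inhibitor and a called activator of Lck.

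Ptprcap, which encodes a protein that associates with CD45, fell from 685 ± 55.0 to 344 ± 52.2 CPM (-0.99, adjusted p = 0.0113), and Ptprj, the receptor phosphatase CD148, from 65.3 ± 14.6 to 29.0 ± 2.69 CPM (-1.17, adjusted p = 0.008). Sla2 (-0.67, adjusted p = 0.017) and Cbl (-0.61, adjusted p = 0.0268), an adaptor and a ubiquitin ligase that lower receptor signalling, fell too, and Lax1 and Lime1 are given with the adaptors. Each of these calls was lost when some single library was left out, while the fold changes kept their direction (Csk -0.94 to -0.72, Cbl -0.69 to -0.52). Calls also fell over all genes, from 1245 to 467 without reporter-null replicate 1. Sla2 was not called without Treg replicate 1 (0.158) or 2 (0.0886) or reporter-null replicate 1 (0.0646), nor Cbl without the same libraries (0.105, 0.165 and 0.0825). Csk was not called without Treg replicate 1 (0.0933) or reporter-null replicate 1 (0.0551), and Ptprj not without Treg replicate 2 (0.0733). Ptprcap lost its call without Treg replicate 1 (0.123) or 2 (0.0747), and Ptprc without Treg replicate 1 (0.149) or 2 (0.205) or reporter-null replicate 1 (0.136). The list's 8 calls became 1 in each fit without a Treg library and 2 in that without reporter-null replicate 1.

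Partners of LAT and SLP-76 mostly did not pass. Among 24 tested, 1 rose and 4 fell (median -0.24), where 4.07% of all tested genes rose and 4.72% fell. Trat1, which encodes TRIM, a transmembrane adaptor that associates with the receptor complex, was the strongest decrease in the list, from 59.6 and 80.5 CPM in Treg to 6.07, 6.62 and 6.68 CPM in reporter-null libraries (-3.44, SE 0.175, adjusted p = 0.000244), and was called with each library left out. Grb2, which binds phosphorylated LAT, fell from 325 ± 5.76 to 217 ± 13.1 CPM (-0.58, adjusted p = 0.0209), and was not called without Treg replicate 1 (0.146) or 2 (0.143) or reporter-null replicate 1 (0.125), nor with the description block (0.0746). Arhgef6 rose from 117 ± 5.66 to 213 ± 10.2 CPM (0.86, adjusted p = 0.00551), and was not called without Treg replicate 1 (0.0841) or 2 (0.0571). Pik3r1, a subunit of PI3 kinase (-0.53, adjusted p = 0.0284), and Was, an actin regulator (-0.60, adjusted p = 0.0473), fell too. Neither was called without Treg replicate 1 (0.194 and 0.316) or 2 (0.139 and 0.117), reporter-null replicate 1 (0.157 and 0.112) or both libraries numbered 2 (0.0641 and 0.111). The call of Was was also lost without reporter-null replicate 3 (0.079), and that of Pik3r1 with the description block (0.127). The list's count fell to 1 without either Treg library and to 2 without reporter-null replicate 1.

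Trat1 is 1 of 7 transmembrane adaptors that resemble LAT in plan, a group put together after the values were seen. Of Lat, Lat2, Pag1, Sit1, Trat1, Lax1 and Lime1, 3 were lower and none higher. Over all tested genes 4.72% were lower and 4.07% higher. The 3 are Trat1, Lax1 and Lime1, each already counted in a list above. Lax1 fell from 86.1 ± 1.81 to 58.4 ± 3.50 CPM (-0.56, adjusted p = 0.0261) and Lime1 from 232 ± 13.3 to 169 ± 6.44 CPM (-0.46, adjusted p = 0.0453). Lax1 lost its call without Treg replicate 1 (0.165) or 2 (0.12), reporter-null replicate 1 (0.0925) or both libraries numbered 2 (0.0682), and with the description block (0.0524). Lime1 lost it whichever library was left out (0.0508 to 0.302), without both libraries numbered 2 (0.288) and with the description block (0.134). Of the 4 not called, Sit1, an inhibitory adaptor, differed by 0.34 (adjusted p = 0.225) and Pag1, which anchors Csk, by -0.28 (adjusted p = 0.275).

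Further downstream 1 of 13 genes was called, where 8.79% of all tested genes were. Dgka, the diacylglycerol kinase that ends RasGRP1 and protein kinase C-theta signalling, fell from 517 ± 12.9 to 234 ± 6.80 CPM (-1.14, adjusted p = 0.0015) and was called with each library left out. Rasgrp1, which diacylglycerol activates, was 301 and 397 CPM in Treg and 537, 473 and 566 CPM in reporter-null libraries and was not called (0.59, adjusted p = 0.0741). Without reporter-null replicate 2 Rasgrp1 was called too (0.0168), for a count of 2, as it was with DESeq2 (0.00278). Prkcq, Bcl10 and Malt1, named with Rasgrp1, Cd5 and Cd28 after their values were seen, were not called, with log2 fold changes of -0.26, -0.08 and 0.49, and Malt1 passed with DESeq2 (0.0441).

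Of 16 other surface proteins of the T cell contact, 2 were higher and 4 lower, with a median of -0.27. The shares over all tested genes were 4.07% and 4.72%. Cd2, the adhesion receptor for CD48, fell from 1174 ± 138 to 455 ± 32.7 CPM (-1.37, adjusted p = 0.00186) and Cd101 from 59.8 ± 7.13 to 18.9 ± 1.26 CPM (-1.66, adjusted p = 0.00123). Both were called with each library left out. Cd226, an activating receptor for nectin-like ligands, rose from 50.7 ± 1.81 to 133 ± 26.3 CPM (1.39, adjusted p = 0.00558), and was not called without Treg replicate 1 (0.0828) or 2 (0.0672). Cd160 (-2.52, adjusted p = 0.00798) and Cd81 (-1.80, adjusted p = 0.0366) fell and Cd44, an adhesion receptor of activated T cells, rose (0.65, adjusted p = 0.0345). Cd160 was not called without Treg replicate 2 (0.0958), and Cd81 not without Treg replicate 1 (0.219) or 2 (0.17) or reporter-null replicate 1 (0.144). Cd44 was not called without Treg replicate 1 (0.252) or 2 (0.0743), reporter-null replicate 1 (0.132) or 3 (0.0578), or both libraries numbered 2 (0.117). Cd5, a negative regulator whose surface level follows receptor signal strength in thymocytes, was 554 and 660.3 CPM in Treg and 468, 403 and 376 CPM in reporter-null libraries and did not pass (-0.55, adjusted p = 0.0677). It was called lower without reporter-null replicate 2 (0.0461), without both libraries numbered 2 (0.0242), with the description block (0.0441), with a filter of 1 CPM in 2 libraries (0.0473) and with DESeq2 (0.00461). Cd28 differed by 0.37 (adjusted p = 0.194). The count of calls was 3 without Treg replicate 1 and 2 without Treg replicate 2.

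Transcription factors that act on Cd4 or the CD3 genes changed in both directions. Among the 21 tested, 4 rose and 2 fell (4.07% and 4.72% of all tested genes), and the median was 0.16. Zbtb7b, which encodes ThPOK, the factor that keeps Cd4 on and Cd8 off in helper T cells, was 39.5 and 48.7 CPM in Treg and 48.8, 41.0 and 43.4 CPM in reporter-null libraries (0.01, adjusted p = 0.982). Runx3, which binds the Cd4 silencer in CD8 T cells, rose from 105.0 ± 1.98 to 157 ± 17.7 CPM (0.58, adjusted p = 0.0418). Id2, an inhibitor of E proteins, rose from 608 ± 69.2 to 1132 ± 104 CPM (0.90, adjusted p = 0.0126). Runx1 (0.65, adjusted p = 0.0166) and Tcf7 (0.76, adjusted p = 0.0176), which encodes TCF-1, rose too. Lef1, which encodes a close relative of TCF-1, fell from 181 ± 13.9 to 32.7 ± 11.4 CPM (-2.47, adjusted p = 0.00726) and Satb1, a chromatin organiser of T cell genes, from 764 ± 159 to 253 ± 58.6 CPM (-1.60, adjusted p = 0.00741).

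These calls were also lost when some single library was left out, while the fold changes kept their direction (Runx1 0.60 to 0.70, Lef1 -2.77 to -2.25). Calls over all genes fell as well, from 1245 to 467 without reporter-null replicate 1. Runx3 was not called without Treg replicate 1 (0.236) or 2 (0.218), without reporter-null replicate 1 (0.168) or both libraries numbered 2 (0.0924), nor with the description block (0.0759). Id2 lost its call without Treg replicate 1 (0.0816) or 2 (0.123) or reporter-null replicate 1 (0.0592), Lef1 without Treg replicate 1 (0.0776) or 2 (0.0644), and Satb1 without Treg replicate 1 (0.0741). Runx1 was not called without Treg replicate 1 (0.165) or 2 (0.107) or reporter-null replicate 1 (0.0779), nor Tcf7 without the same libraries (0.17, 0.0764 and 0.0902). Leaving out Treg replicate 1 brought the list's count to 0 in edgeR, leaving out Treg replicate 2 to 1, and leaving out reporter-null replicate 1 to 2.

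**Figure D4:**
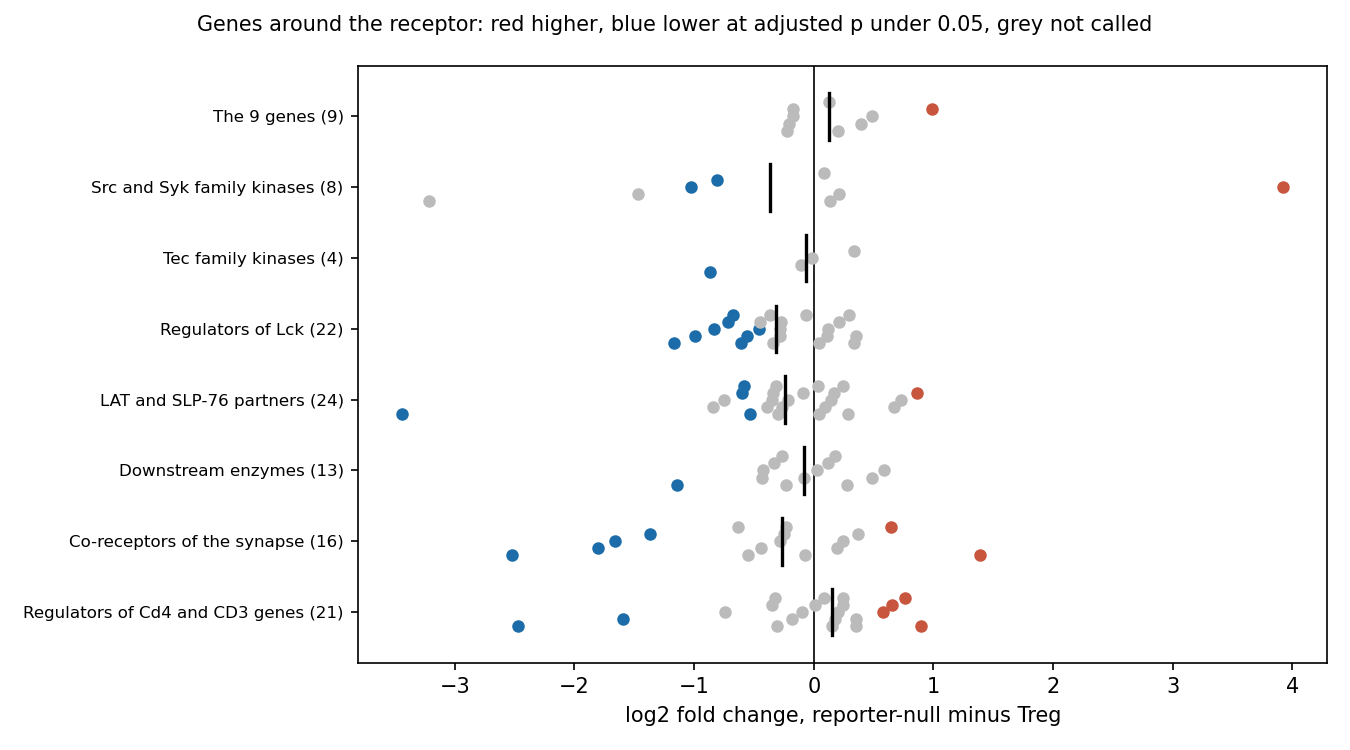
Log2 fold change (reporter-null minus Treg) of each tested gene in the 9 genes and in 7 lists around the receptor, with the median as a bar and the number of genes in brackets. Red and blue points were higher and lower at an adjusted p under 0.05. Of the regulators of Lck 8 are blue and none red, in lists chosen with earlier results of these data known. Over all tested genes 4.72% were lower and 4.07% higher. Trat1 (-3.44) and Blk (3.92) lie at the ends.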

How the data were processed

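The authors deposited raw counts per gene symbol, 1 column a library. Per the labels' protocols, polyadenylated RNA was amplified with SMART-Seq v4 and sequenced as paired ends. The submitters' processing notes name DESeq, with no role. For aligner, build, annotation and strand setting, nothing is stated: not given in the sources used here. Reads of overlapping genes, such as Cd247 and Pou2f1, cannot be told apart. The labels name no molecular identifiers.

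Of 24421 rows, 4 named NA were left out (0.0034% to 0.00492% of counts). No column was unused. No replicate pair agreed within sampling noise (chi-square 23.0 to 98.1 per degree of freedom). In R 4.3.3, filterByExpr (minimum count 10, minimum total 15) kept 14164 genes, and edgeR 4.0.16 compared the groups by its robust quasi-likelihood test with TMM factors. SE is the log2 fold change divided by the square root of F, and 95% intervals use the test's degrees of freedom. The code was tested on simulated data.

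The members and the 17 lists were chosen with earlier results of these data known. Named genes were all members, Foxp3 and Thy1, a set of relatives (Cd8a, Cd8b1, Fcer1g, Fyn, Syk, Csk, Ptprc, Zbtb7b, Runx3), up to 3 called genes with the smallest p per list with any needed to describe a count, and the 5 genes with the profile nearest to Cd4 and to the CD3 mean. Some genes of the rule and the lists are not reported here. Ratios between pairs of members were chosen after the values were seen. The alternatives tried were DESeq2 1.42.0, voom in limma 3.58.1, RLE or upper quartile scaling, other filters, blocks, thinned counts, a stricter threshold and left-out libraries.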

Additional observations from a re-analysis of the deposited data

How the results depend on the processing

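Over 16 alternatives the 9 genes kept direction in all fits, and 137 of 144 results stayed on their side of the threshold. The count of members called was 3 with DESeq2 (Cd4, Cd3g and Zap70) and 2 without both libraries numbered 2 in the descriptions. With each library left out it ran from 0 to 2, and the count over all genes from 341 to 2035. Over all genes it was 2325 with DESeq2, 2152 without both libraries numbered 2 and 489 at an adjusted p under 0.01. The labels do not say that replicate numbers pair the libraries. With a replicate block from the titles 24 genes and 0 members were called by edgeR (2539 genes at an unadjusted p under 0.05), and Cd4 had an adjusted p of 0.112. With a replicate block from the description numbers 1399 genes were called, Cd4 among them. In that fit reporter-null replicate 1 stood alone in its block and added nothing to the contrast. With the title numbers the same held for reporter-null replicate 3. Deviations from the group mean correlated across genes at r = 0.602 and 0.481 for libraries that share a description number. For libraries that share a title number r was -0.511 and -0.602. With 2 Treg libraries these deviations are mirror images, so r for 1 Treg library is that for the other with its sign changed. The signs go with the description numbers and not with the title numbers. Yet Treg replicate 2 and reporter-null replicate 1, which share neither number, also had r = 0.511. Likeness of this kind therefore cannot decide which numbers, if any, pair the libraries. With each library left out Syk ran from -3.17 (without reporter-null replicate 2, reversed) to 1.05, and Epcam from -5.34 (the same library, reversed) to 0.59. Epcam was also reversed, at -5.115, without both libraries numbered 2. Their causes were not tested. Cd4 was called in 12 of 15 alternatives at the 0.05 threshold, with adjusted p-values of 8.05e-13 to 0.112. With 2 Treg libraries, each fit without 1 of them takes its spread from the reporter-null libraries.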

Other observations

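Cd8b1, the beta chain of the CD8 co-receptor, was present where Cd8a was near 0. It stood at 11.6 and 11.1 CPM in the Treg libraries and at 5.42, 3.41 and 7.34 CPM in the reporter-null libraries, and every reporter-null library lay below both Treg libraries. The log2 fold change of -1.08 (SE 0.346) did not pass (edgeR quasi-likelihood test, adjusted p = 0.118). Cd8a ran from 0.0445 to 0.542 CPM with overlapping groups and was too low to be tested. Fcer1g, which can stand in for the zeta chain in some innate-like T cells, was between 0.832 and 3.07 CPM in all 5 libraries.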
